A study of Saccharomyces bayanus x Saccharomyces cerevisiae with 8 samples.

Results

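Translation factors are the proteins that bring the ribosome, the initiator tRNA and the messenger RNA together, move the ribosome along the message and release the finished protein. The genes described here are the cytosolic initiation, elongation and termination factors of yeast, chosen from a list of 40 by their function. The deposited counts cover 26 of them, and these 26 are described below, among 4238 pairs of orthologs in all. All 26 passed the filter, a minimum of 10 reads per biological replicate with the alleles added. The other 14 were not analysed here. They are SUI1 (YNL244C, eIF1), TIF11 (YMR260C, eIF1A), GCN3 (YKR026C, a subunit of eIF2B), PRT1 (YOR361C, a subunit of eIF3), TIF1 and TIF2 (eIF4A), TIF4632 (YGL049C, eIF4G), EAP1 (YKL204W, an eIF4E-binding protein), TEF1 and TEF2 (eEF1A), EFT1 and EFT2 (eEF2), and HYP2 and ANB1 (eIF5A). Of the 6 paralog pairs among the 40 genes, only TEF4 and CAM1 were therefore measured as a pair.

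Expression was measured separately for the S. bayanus allele and the S. cerevisiae allele of each gene in OZY27, a hybrid strain. Its S. bayanus genome derives from CBS 4001 and carries ade2, his3 and lys2 mutations. Its S. cerevisiae genome is isogenic to the laboratory strain W303 and carries his3, leu2, lys2, trp1 and ura3 mutations. The mutated marker genes are present in every sample, since all samples come from this 1 strain. There were 2 cultures in log phase, kept at 25°C in the rich medium YPD. Each culture gave 1 library, called biological replicate 1 and biological replicate 2, so n = 2. The samples are 8 lanes in which these libraries were sequenced, with 5 lanes for replicate 1 and 3 lanes for replicate 2, run at the sites named UCB and UCR. Both alleles were read from the same cells and the same library, so each library is its own control.

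Initiation in yeast begins when eIF2 carries the initiator tRNA to the small ribosomal subunit, helped by eIF1, eIF1A, eIF3 and eIF5. The cap-binding complex eIF4F recruits the message, eIF5B joins the large subunit, and eIF2B recharges eIF2 with GTP. Elongation relies on eEF1A, its exchange factor eEF1B, eEF2 and, in fungi, eEF3, and termination on eRF1 and eRF3. In fast-growing yeast these genes are among the more strongly expressed, together with those of the ribosome.

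Replicate 1 held 14707025 counted reads and replicate 2 held 8223099. Single lanes held 2350222 to 3159446. Reads of the 26 genes made up 3.77% of replicate 1 and 3.64% of replicate 2. Each of them had between 5186 reads (GCD7) and 122156 reads (TEF4) over both alleles, with a median of 19190, against a median of 2673 over the 4197 genes tested. Levels are given as RPKM, here reads divided by the mappable length in kilobases and scaled to the plain total of counted reads of that genome in that replicate. No further scaling factor enters these levels, whereas the log2 ratios use totals adjusted by edgeR's TMM factors, which were 1.046 for S. bayanus and 1.036 for S. cerevisiae in replicate 1, against 0.959 and 0.962 in replicate 2. Allele differences are log2 ratios of the S. bayanus over the S. cerevisiae allele, so a positive value means a higher S. bayanus allele. The ± after a log2 ratio is a standard error computed back from the ratio and edgeR's test statistic, which shares information over genes. Each genome was scaled to its own total, which sets the typical gene near a ratio of 1. A difference was called at an adjusted p under 0.05 in edgeR's quasi-likelihood test over all 4197 genes.

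The alleles of translation factor genes differed by small amounts, and in both directions. The S. bayanus allele was higher in 7 genes (NIP1, CDC33, PAB1, TIF35, TIF5, TIF34 and TEF4) and the S. cerevisiae allele in 6 (EFB1, CAM1, SUI3, FUN12, GCD11 and GCD2), by the edgeR test. The other 13 genes did not pass the test. The 13 called genes are 50% of the 26, against 53.5% of all genes tested, so the share of called genes was close to the background. Toward S. bayanus the background was 26.6%, and toward S. cerevisiae it was 26.9%. Log2 ratios ran from -0.62 (EFB1) to 0.60 (NIP1), with a median of 0.04 over the 26 genes and of -0.003 over all genes tested. The median absolute log2 ratio was 0.25 (1.19-fold) for the 26 genes and 0.37 (1.30-fold) for all genes tested. Only NIP1 and EFB1 passed the test at 1.5-fold or more, that is 2 of 26, against 29.6% of all genes tested. Toward S. bayanus this background was 14.4% and toward S. cerevisiae 15.2%. Which of the 26 genes reached 1.5-fold depended on the processing. Over 18 alternatives the log2 ratio of NIP1 ranged from 0.48 to 0.72 and that of EFB1 from -0.69 to -0.51. CAM1, at 1.49-fold as reported, ranged from -0.76 to -0.42. Deeply read genes had fewer large differences in general. Of the 1191 genes with at least as many reads as GCD7, 49.7% passed the test and 17.1% passed it at 1.5-fold or more. Standard errors of the 26 log2 ratios lay between 0.07 and 0.09, against a median of 0.11 over all genes tested. Lane counts are given below as description, since lanes are repeat runs of the 2 libraries and not replicates. Every called gene had 8 of 8 lanes on the same side of 0. So did GCD1, HCR1, CAF20 and SUP35, which were not called.

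**Figure D1:**
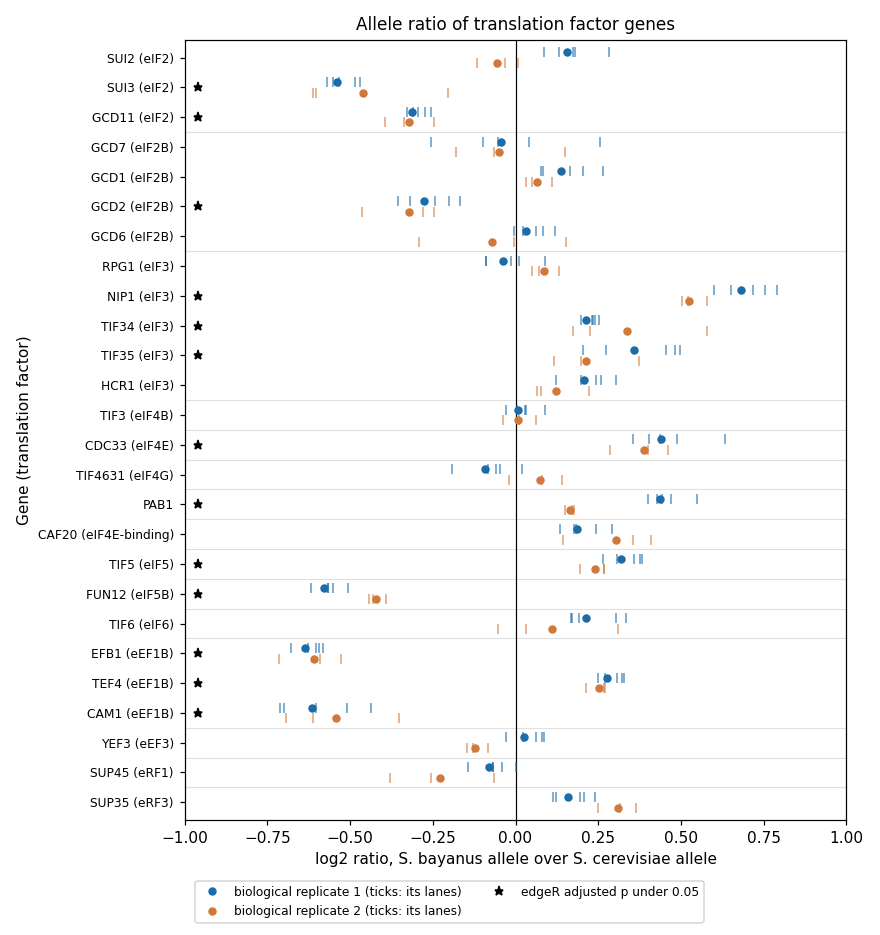
Log2 ratio of the S. bayanus over the S. cerevisiae allele for the 26 translation factor genes, grouped by factor. Circles are the 2 biological replicates, ticks are their 5 and 3 lanes, and stars mark genes with an edgeR adjusted p under 0.05. NIP1 and EFB1 lie farthest from 0, with fitted ratios of 0.60 and -0.62, and 4 of the 5 measured eIF3 genes lie above 0 in both replicates, RPG1 being the exception.

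The split between directions depended on the scaling. When both alleles of a replicate shared 1 library size, the ratio was not centred and the median of all genes shifted by 0.11 toward S. bayanus. Then 11 of the 26 genes were called with a higher S. bayanus allele, against 31.5% of all genes tested, and 4 with a higher S. cerevisiae allele, against 19.4%. In sum 15 of 26 were called, against 50.8% of all genes tested. The tilt toward S. bayanus was thus present over all genes too. GCD11 and GCD2 then lost their calls, and HCR1, CAF20, TIF6 and SUP35 gained one. DESeq2 called 6 of the 26, against 35.3% of all genes tested, with NIP1 and CDC33 higher in S. bayanus, against a background of 17.4%, and SUI3, FUN12, EFB1 and CAM1 higher in S. cerevisiae, against 17.9%. Without the replicate block none of the 26 passed the edgeR test at an adjusted p under 0.05, against 20.6% of all genes. That background splits into 9.91% in favour of S. bayanus and 10.7% in favour of S. cerevisiae. The lowest edgeR adjusted p of the 26 was then 0.0764, and 2 of them had an unadjusted p under 0.05. The 6 genes called by DESeq2 kept their direction and their call under every scaling, filter, site and lane alternative that was run with the replicate block.

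eIF2 is the GTP-binding trimer that delivers the initiator tRNA. Of its 3 subunit genes, SUI3 (YPL237W) and GCD11 (YER025W) were called toward S. cerevisiae and SUI2 (YJR007W) was not called. Over all genes tested 26.9% were called toward S. cerevisiae. SUI3, the beta subunit, had 1358 and 1430 RPKM from its S. bayanus allele in replicates 1 and 2, against 1958 and 1976 RPKM from its S. cerevisiae allele. The alleles did not overlap, and the S. cerevisiae allele was higher in 8 of 8 lanes. The log2 ratio of SUI3 was -0.50 ± 0.08 (edgeR adjusted p = 0.0053). Across lanes it ran from -0.61 to -0.20 with a median of -0.54. GCD11, the gamma subunit that binds GTP and the tRNA, had a log2 ratio of -0.32 ± 0.08 (edgeR adjusted p = 0.0194). With a correction for the deposited GC difference between the alleles, GCD11 stood at -0.12 and was no longer called (edgeR adjusted p = 0.205). SUI2, the alpha subunit that the kinase Gcn2 phosphorylates when amino acids run short, had a log2 ratio of 0.05 (edgeR adjusted p = 0.668). The level of SUI3 over SUI2 was 1.24 and 1.85 among S. bayanus alleles in replicates 1 and 2, against 2.00 and 2.46 among S. cerevisiae alleles. Within each replicate, the SUI3 message thus exceeded the SUI2 message by more in the S. cerevisiae set of alleles. The difference between subunits was not tested.

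eIF2B is the exchange factor that recharges eIF2 with GTP. The 4 measured subunit genes had the lowest levels of the 26, and 1 of them was called, against 53.5% of all genes tested. GCD2 (YGR083C), the delta subunit of the regulatory part, had a log2 ratio of -0.30 ± 0.08 (edgeR adjusted p = 0.0269), with the S. cerevisiae allele higher in 8 of 8 lanes. With only the UCB lanes GCD2 stood at -0.24 and was no longer called (edgeR adjusted p = 0.0611). GCD7 (YLR291C), the beta subunit, stood at -0.05 (edgeR adjusted p = 0.684). GCD1 (YOR260W) and GCD6 (YDR211W) encode the gamma and epsilon subunits of the catalytic part. They stood at 0.10 (edgeR adjusted p = 0.335) and -0.02 (edgeR adjusted p = 0.877). The direction of GCD7 and GCD6 flipped with 1 shared library size, and that of GCD1 and GCD6 with the GC correction. The level of GCD2 over GCD1 was 0.823 and 0.804 among S. bayanus alleles, against 1.10 and 1.05 among S. cerevisiae alleles. The order of the subunits thus differed between the genomes in both replicates, by a small margin among S. cerevisiae alleles. With the GC correction the log2 ratios of GCD2 and GCD1 were -0.26 and -0.04. This difference between subunits was not tested.

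eIF3 is the large scaffold on the small subunit for the other initiation factors. Its 5 measured genes all had positive ratios, as did 2094 of the 4197 genes tested. Of the 5, 3 were called, all toward S. bayanus. Over all genes tested 53.5% were called, and 26.6% toward S. bayanus. DESeq2 called only NIP1 of these 3. NIP1 (YMR309C), the c subunit, showed the largest S. bayanus excess of the 26 genes. It had 514 and 442 RPKM from the S. bayanus allele in replicates 1 and 2, against 318 and 308 RPKM from the S. cerevisiae allele. The 2 alleles did not overlap, and S. bayanus was higher in 8 of 8 lanes. The log2 ratio was 0.60 ± 0.09 (1.52-fold, edgeR adjusted p = 0.00399). With the GC correction NIP1 stood at 0.48 and was still called (edgeR adjusted p = 0.00365). TIF35 (YDR429C), the g subunit, had a log2 ratio of 0.29 ± 0.08 (edgeR adjusted p = 0.0341). TIF34 (YMR146C), the i subunit, had 0.27 ± 0.08 (edgeR adjusted p = 0.0342). HCR1 (YLR192C), the loosely bound j subunit, had 0.17 (edgeR adjusted p = 0.13), and RPG1 (YBR079C), the a subunit, had 0.02 (edgeR adjusted p = 0.815). RPG1 stood at -0.03 with only the UCR lanes. The call of TIF34 was lost with the GC correction, where its ratio was 0.10 (edgeR adjusted p = 0.274). The deposited GC difference of TIF34, S. bayanus minus S. cerevisiae, is 5.89 percentage points. Lane 4 gave TIF34 a ratio of 0.58, against 0.17 to 0.25 in the other 7 lanes, and without that lane the gene stood at 0.21 and was still called (edgeR adjusted p = 0.0432). The call of TIF35 was lost without lane 7, where its ratio was 0.26 (edgeR adjusted p = 0.0682), and with only the UCB lanes, where it was 0.22 (edgeR adjusted p = 0.0858).

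NIP1 was also the least expressed eIF3 gene, at 791 ± 57.7 RPKM over both alleles, against 1810 ± 194 for RPG1 (SD, n = 2). RPG1 exceeded NIP1 by 1.88 and 1.95 times among S. bayanus alleles in replicates 1 and 2, against 3.09 and 2.64 times among S. cerevisiae alleles. The messages of these core subunits were therefore less unequal among S. bayanus alleles in each replicate. TIF34 exceeded NIP1 by 3.88 and 3.30 times among S. bayanus alleles, against 5.37 and 3.76 times among S. cerevisiae alleles. These ratios are levels per length and carry no test.

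The cap-binding complex and its partners bring the ribosome to the 5′ end of the message. CDC33 (YOL139C), which encodes the cap-binding protein eIF4E, had 2873 and 2138 RPKM from its S. bayanus allele in replicates 1 and 2, against 2099 and 1640 RPKM from its S. cerevisiae allele. Within each replicate the S. bayanus allele was the higher, as it was in 8 of 8 lanes. The log2 ratio was 0.41 ± 0.08 (1.33-fold, edgeR adjusted p = 0.011). With the GC correction CDC33 stood at 0.26 and was still called (edgeR adjusted p = 0.0352). Only 228 of the 642 bases of CDC33 are mappable in either genome, so the value rests on 35.5% of the gene. CAF20 (YOR276W), a small protein that competes with eIF4G for eIF4E, had a log2 ratio of 0.24 and did not pass the test (edgeR adjusted p = 0.0597). It passed without lane 4, at 0.29 (edgeR adjusted p = 0.0273), and with only the UCR lanes, at 0.28 (edgeR adjusted p = 0.0313). Its standard error was 0.10 and 0.11 in these fits, against 0.09 as reported, so the lower adjusted p values came without a more precise ratio. TIF4631 (YGR162W), the eIF4G scaffold, and TIF3 (YPR163C), which encodes eIF4B, a helper of the eIF4A helicase, showed the smallest differences of the 26. They stood at -0.01 (edgeR adjusted p = 0.925) and 0.01 (edgeR adjusted p = 0.948). The sign of both changed with the GC correction, and that of TIF4631 also with 1 shared library size.

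PAB1 (YER165W) encodes the poly(A)-binding protein, which holds the tail of the message and contacts eIF4G. It had 2854 and 3079 RPKM from its S. bayanus allele in replicates 1 and 2, against 2090 and 2757 RPKM from its S. cerevisiae allele. S. bayanus was higher in 8 of 8 lanes, and the lowest S. bayanus level lay just above the highest S. cerevisiae level. The log2 ratio was 0.30 ± 0.09 (edgeR adjusted p = 0.0418), and it was 0.44 in replicate 1 and 0.16 in replicate 2. PAB1 lost its call without lane 1, 2, 3 or 7, with edgeR adjusted p values of 0.0612, 0.0588, 0.0512 and 0.0567 at ratios of 0.30, 0.31, 0.30 and 0.30. It also lost it with only the UCB lanes, at 0.30 (edgeR adjusted p = 0.0581).

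Among the factors of start codon recognition and subunit joining, TIF5 and FUN12 were called, in opposite directions. TIF5 (YPR041W) encodes eIF5, which triggers GTP hydrolysis by eIF2. It had 1403 and 1265 RPKM from its S. bayanus allele in replicates 1 and 2, against 1114 and 1076 RPKM from its S. cerevisiae allele. Its log2 ratio was 0.28 ± 0.08 (edgeR adjusted p = 0.0292), with S. bayanus higher in 8 of 8 lanes. With the GC correction TIF5 stood at 0.13 and was no longer called (edgeR adjusted p = 0.181). FUN12 (YAL035W) encodes eIF5B, the GTPase that joins the ribosomal subunits. It had 1330 and 1300 RPKM from its S. bayanus allele, against 1970 and 1747 RPKM from its S. cerevisiae allele. The alleles of FUN12 did not overlap, and the S. cerevisiae allele was higher in 8 of 8 lanes. Its log2 ratio was -0.50 ± 0.08 (1.41-fold, edgeR adjusted p = 0.00563). TIF6 (YPR016C) encodes eIF6, which keeps free large subunits from binding small ones and is needed to make them. It stood at 0.16 (edgeR adjusted p = 0.154) and at -0.01 with the GC correction.

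eEF1B reloads eEF1A with GTP after each tRNA delivery, and all 3 of its measured genes were called. The called share was 53.5% over all genes tested. EFB1 (YAL003W), the catalytic alpha subunit, showed the largest S. cerevisiae excess of the 26 genes and the highest level. It had 10441 and 9144 RPKM from its S. bayanus allele in replicates 1 and 2, against 16087 and 14003 RPKM from its S. cerevisiae allele. The alleles were far apart relative to the replicates, and S. cerevisiae was higher in 8 of 8 lanes, with lane ratios between -0.72 and -0.53. The log2 ratio of EFB1 was -0.62 ± 0.07 (1.54-fold, edgeR adjusted p = 0.00245). It rests on 224 mappable bases in S. bayanus and 222 in S. cerevisiae, of deposited ortholog lengths of 549 and 621 bases.

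The gamma subunit of eEF1B has paralogous genes, TEF4 (YKL081W) and CAM1 (YPL048W), and their alleles differed in opposite directions. TEF4 had 6137 and 7511 RPKM from its S. bayanus allele in replicates 1 and 2, against 5022 and 6332 RPKM from its S. cerevisiae allele. Its log2 ratio was 0.26 ± 0.07 (1.20-fold, edgeR adjusted p = 0.0286), with S. bayanus higher in 8 of 8 lanes. CAM1 had 341 and 553 RPKM from its S. bayanus allele, against 518 and 809 RPKM from its S. cerevisiae allele. Its log2 ratio was -0.58 ± 0.08 (1.49-fold, edgeR adjusted p = 0.00399), with S. cerevisiae higher in 8 of 8 lanes. TEF4 was therefore 18.0 and 13.6 times as abundant as CAM1 among S. bayanus alleles in replicates 1 and 2, against 9.69 and 7.83 times among S. cerevisiae alleles. The log2 ratio of TEF4 exceeded that of CAM1 by 0.89 in replicate 1 and by 0.79 in replicate 2. With n = 2 this difference between the genes was not tested. Reads shared between the paralogs could mix their values. The mappable share of CAM1 is 93.6% in S. bayanus and 82.5% in S. cerevisiae, and that of TEF4 is 70.4% and 71.3%.

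YEF3 (YLR249W) encodes eEF3, an ATPase of fungi that clears the spent tRNA from the ribosome. Its alleles were nearly equal, with 4589 and 4693 RPKM for S. bayanus in replicates 1 and 2, against 4465 and 5129 RPKM for S. cerevisiae. The log2 ratio was -0.05 ± 0.08 (edgeR adjusted p = 0.629), and it turned to 0.07 with 1 shared library size. Only 34.4% of the S. bayanus gene and 34.9% of the S. cerevisiae gene are mappable.

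Neither release factor gene was called. SUP45 (YBR143C), which encodes eRF1, the protein that reads stop codons, stood at -0.15 ± 0.08 (edgeR adjusted p = 0.173). This value depends on the length correction. The gene has 609 mappable bases in S. bayanus and 931 in S. cerevisiae, and it had 4775 and 2110 S. bayanus reads in replicates 1 and 2, against 7296 and 3412 S. cerevisiae reads. Without the length correction SUP45 would be called at -0.77 (edgeR adjusted p = 0.00202). With the GC correction it was called at -0.26 (edgeR adjusted p = 0.0302). SUP35 (YDR172W), the GTPase eRF3, stood at 0.23 ± 0.08 (edgeR adjusted p = 0.0587), with S. bayanus higher in 8 of 8 lanes. SUP35 passed the test without lane 4, at 0.26 (edgeR adjusted p = 0.0256), with the GC correction, at 0.29 (edgeR adjusted p = 0.026), and with only the UCR lanes, at 0.26 (edgeR adjusted p = 0.013).

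**Figure D2:**
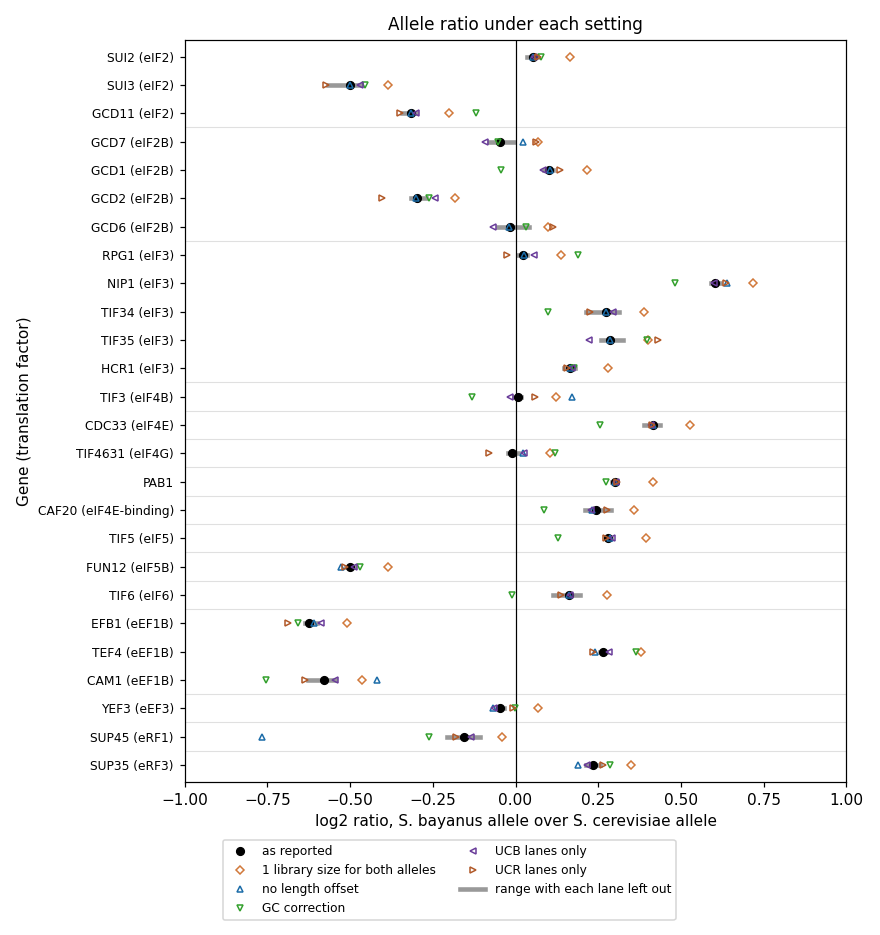
Log2 ratio of the S. bayanus over the S. cerevisiae allele for each gene as reported (filled circles) and under 5 other settings (open symbols), with grey bars for the range when each lane is left out. SUP45 lies at -0.77 without the length offset, against -0.15 as reported, while NIP1, CDC33, SUI3, FUN12, EFB1 and CAM1 keep their direction under every setting shown.

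The levels of the 26 genes spanned from 407 ± 90.7 RPKM for GCD6 to 24837 ± 2391 RPKM for EFB1, summed over both alleles (SD, n = 2). All 26 lay above the median of all tested genes, 184 RPKM, and the median of the 26 was 2403 RPKM. After EFB1 came TEF4 at 12502 ± 1898, YEF3 at 9439 ± 543, PAB1 at 5390 ± 631 and CDC33 at 4376 ± 844 RPKM (SD, n = 2). The 3 most abundant messages thus belonged to elongation factors, and their replicates did not overlap. PAB1 and CDC33 overlapped. SUI3 followed at 3360 ± 64.0 RPKM. From FUN12, at 3174 ± 179 RPKM, down to TIF6, at 2731 ± 72.0 RPKM (SD, n = 2), every neighbour in the order overlapped with the next. In between lay TIF35, TIF34, TIF3 and CAF20. The lowest 5 were NIP1, GCD1, GCD2, GCD7 and GCD6, and among these only GCD2 and GCD7 did not overlap as neighbours. In all, 16 of the 25 pairs of neighbours overlapped between replicates.

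**Figure D3:**
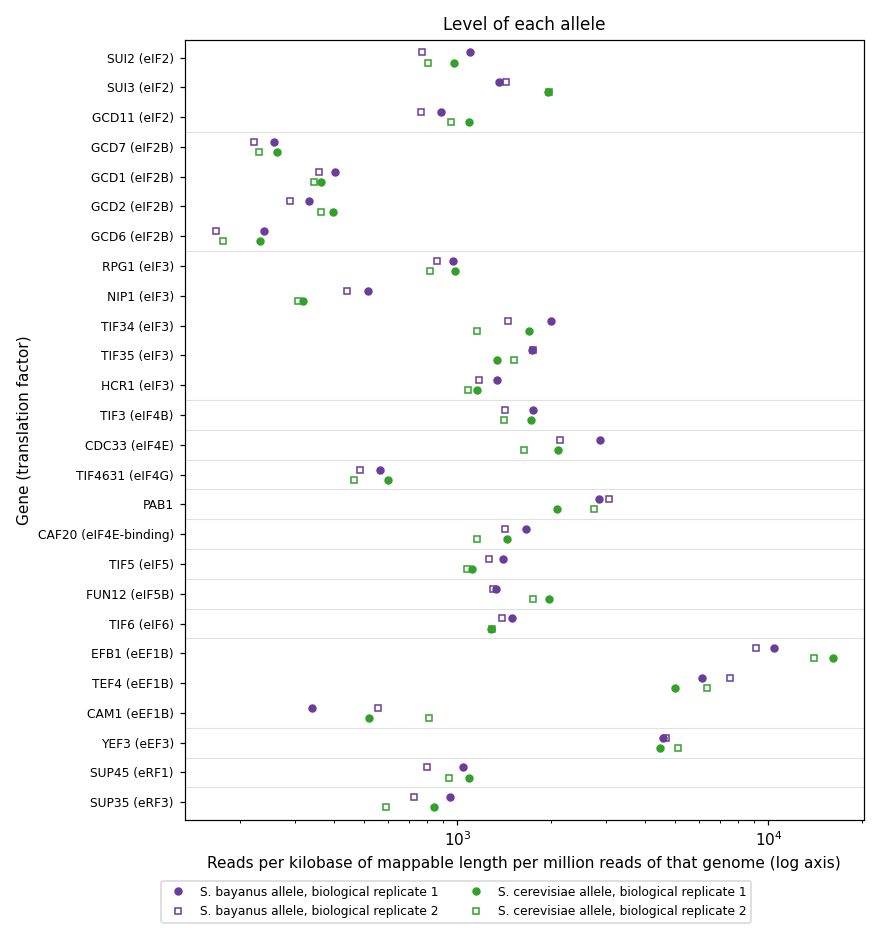
Level of the S. bayanus and the S. cerevisiae allele of each gene in RPKM on a log axis, with filled circles for biological replicate 1 and open squares for replicate 2. EFB1, TEF4 and YEF3 are the most abundant and the eIF2B genes and NIP1 the least, and the gap between alleles is small beside the spread between genes.

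The cultures differed in the level of some factors. Since each culture gave 1 library, culture and library cannot be told apart, and no test was made. CAM1 was the only one of the 26 with a level at least 1.5-fold apart, against 10.6% of all genes tested. It had 859 RPKM in replicate 1, against 1362 RPKM in replicate 2, a ratio of 0.631. The median ratio was 1.09 over all genes tested and 1.13 over the 26. Both alleles of CAM1 stood lower in replicate 1, with ratios of 0.616 for S. bayanus and 0.641 for S. cerevisiae. TEF4 had a ratio of 0.806, PAB1 of 0.847 and YEF3 of 0.922, while EFB1 stood at 1.15. The highest ratios were those of TIF34 at 1.41, GCD6 at 1.37 and SUP35 at 1.36. With TMM-adjusted totals, a scaling chosen after the data were seen, the median over all genes was 1.00 and each ratio was lower, with CAM1 at 0.583, TEF4 at 0.743, YEF3 at 0.850 and EFB1 at 1.06. CAM1 was then again the only one of the 26 at 1.5-fold or more, against 9.77% of all genes tested.

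**Figure D4:**
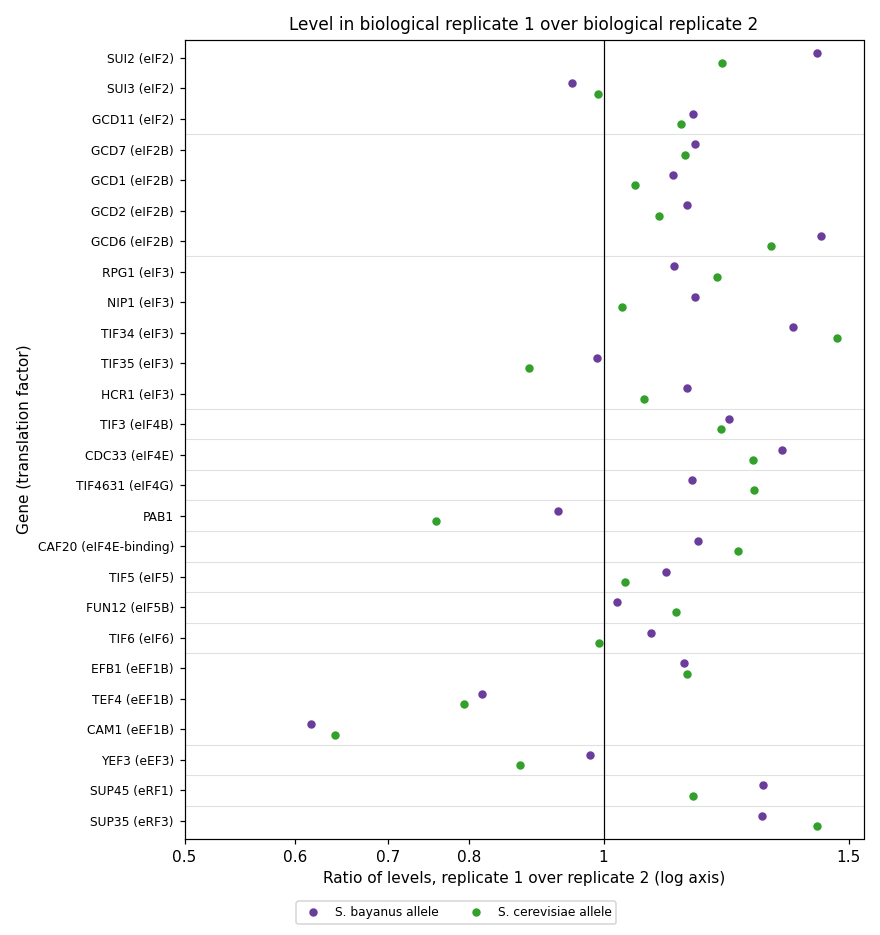
Level in biological replicate 1 over that in biological replicate 2 for the S. bayanus and the S. cerevisiae allele of each gene, on a log axis. Both alleles of CAM1 lie lowest, at 0.616 and 0.641, and those of TEF4 lie at 0.817 and 0.793.

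The lanes of the cultures did not overlap in 6 of the 26 genes, against 22.3% of all genes tested, so this share was close to the background. The ratio was higher in replicate 1 for SUI2, NIP1, PAB1 and YEF3, that is 4 genes against a background of 12.4%. It was higher in replicate 2 for FUN12 and SUP35, that is 2 genes against a background of 9.89%. PAB1 had the widest gap, at 0.27 with a 95% interval of 0.22 to 0.32 that covers counting error only. The lane ratios of PAB1 lay between 0.40 and 0.55 in replicate 1, against 0.15 to 0.18 in replicate 2. Its S. bayanus allele had a level ratio between the cultures of 0.927, and its S. cerevisiae allele one of 0.758. SUI2 followed, at 0.21 (interval 0.09 to 0.33), and it was on opposite sides of 0 in the cultures, at 0.15 in replicate 1 and -0.06 in replicate 2. With only the UCR lanes the difference of SUI2 was 0.085, and no UCR lane of it lay below 0, with 0.09 and 0.18 in replicate 1 and 0.006 in replicate 2. The difference of NIP1 was 0.16, with 0.08 from only the UCR lanes and 0.09 with 1 shared library size, and that of YEF3 was 0.15, with 0.08 and 0.10 under 1 shared library size and the GC correction. The median absolute difference was 0.10 over the 26 genes, against 0.17 over all genes tested. The direction was the same in both replicates for 21 of the 26 genes (80.8%), against 85.8% of all genes tested. The 5 exceptions were SUI2, GCD6, RPG1, TIF4631 and YEF3, none of which was called.

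The 26 genes offered less sequence for telling the alleles apart than most. A median of 72.6% of each S. bayanus gene and 71.6% of each S. cerevisiae gene was mappable, against 91.0% and 90.9% over all genes tested. The mappable share was below 60% in S. bayanus for 8 genes, namely SUI2, SUI3, CDC33, PAB1, TIF6, EFB1, YEF3 and SUP45. SUP45 was the only one of the 8 with a mappable share above 60% in S. cerevisiae, at 70.9%. The deposited GC difference, S. bayanus minus S. cerevisiae, had a median of 1.94 percentage points, against 1.75 over all genes tested. It was above 5 points in TIF34, CAF20, TIF6 and CAM1. The part of mappability and GC in the ratios was not tested beyond the alternatives above.

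The authors' deposited table held calls for 13 of the 26 genes, where it called 49.3% of all genes tested here. In the authors' deposited table, the S. bayanus allele was higher in 8 of them, against a background of 29.3%, and the S. cerevisiae allele in 5, against 20%. Of these 13 calls in the authors' deposited table, 11 were shared with the edgeR test in the same direction and none was opposite. HCR1 and SUP35 were called only in the authors' deposited table, and GCD11 and TIF34 only by edgeR. The scales differ, since the authors' deposited log ratios lie close to plain reads per mappable base. The edgeR ratios were scaled to the total of each genome. With 1 shared library size, edgeR called HCR1, SUP35 and TIF34 but not GCD11. The part of scaling in the differing calls was not tested. The resampling p of GCD11 in the authors' deposited table was 0.0089 in replicate 1 and 0.0791 in replicate 2. That of TIF34 in the authors' deposited table was 0.0639 and 0.0007.

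Other genes of translation were set beside these factors. Of 40 listed genes that modify, regulate or assist these factors, 36 were measured, and 17 were called, 8 of them higher in S. bayanus and 9 higher in S. cerevisiae. This was 47.2%, against the background of 53.5%, and their median log2 ratio was -0.06. By direction the background was 26.6% toward S. bayanus and 26.9% toward S. cerevisiae. Among enzymes that modify translation factors, 9 of 17 were called, 5 of them higher in S. bayanus and 4 higher in S. cerevisiae. Of these, 4 reached 1.5-fold, where 29.6% of all genes tested passed the test at that size. JJJ3, a co-chaperone needed for the diphthamide modification of eEF2, had a log2 ratio of 1.05 ± 0.13 (edgeR adjusted p = 0.00308). EFM7 and EFM1, methyltransferases of eEF1A, had 0.94 (edgeR adjusted p = 0.00146) and 0.69 (edgeR adjusted p = 0.00368). MTQ2, the methyltransferase of eRF1, had -0.78 (edgeR adjusted p = 0.00353).

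In the list for Gcn2, which acts on eIF2 through SUI2, 3 of 6 measured genes were called, against 53.5% of all genes tested. The list also holds CDC123, an assembly factor of eIF2, which was not called (edgeR adjusted p = 0.677). The calls ran in both directions, with GCN4 toward S. bayanus and GCN1 and GIR2 toward S. cerevisiae. The backgrounds for these directions were 26.6% and 26.9%. GCN4, the transcription activator whose translation Gcn2 controls, had a log2 ratio of 0.38 (edgeR adjusted p = 0.0188). GCN2 itself had 0.06 (edgeR adjusted p = 0.653). Among accessory factors, 5 of 13 were called, against the same 53.5%. Of the 5, 2 were higher in S. bayanus (background 26.6%) and 3 higher in S. cerevisiae (background 26.9%). DBP1, a helicase paralogous to DED1, was the only called accessory factor to reach 1.5-fold, against 29.6% of all genes tested. It stood at -0.84 ± 0.27 (edgeR adjusted p = 0.0462), from only 196 reads over both alleles. Its call was lost without lane 1, 2, 3, 5 or 8, at edgeR adjusted p values of 0.0539 to 0.0901. It was also lost with only the UCB or only the UCR lanes, at ratios of -1.02 (edgeR adjusted p = 0.0503) and -0.53 (edgeR adjusted p = 0.302), and with 1 shared library size, at -0.73 (edgeR adjusted p = 0.0909). DED1 had 0.31 and did not pass the test (edgeR adjusted p = 0.0778).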

How the data were processed

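The authors deposited raw read counts for every gene in each lane, split by allele. Bowtie was used, per the submitters' processing notes. Its version, the builds of both genomes and the rules of counting were not given in the sources used here, and are not assumed. The authors also deposited natural log ratios, resampling p-values and a combined score of -1, 0 or 1 per gene. Within the 26 genes, the deposited natural log ratios differ by at most 0.0154 from the log ratio of reads per mappable base. The files name genes by systematic ORF name, and the common names and roles are standard yeast nomenclature, given as background.

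Lane counts were added up within a replicate and allele, and tested with edgeR 4.0.16 in R 4.3.3 on 4 columns (2 replicates by 2 alleles). The replicate was a block because both alleles come from 1 library. Log mappable length per allele was an offset and TMM factors scaled each column. Levels used the plain total of each genome in each replicate. Genes needed 10 reads in each replicate; 4197 met this and 41 did not. P-values were adjusted by Benjamini-Hochberg over all genes tested. A value of 0.5 reads was added for log2 ratios by replicate or lane. The labels call the cultures biological replicates. The p-values rest on the spread between these 2 libraries, estimated with information shared over all genes, and not on each gene's own spread alone. TIF3 differed by 4.4e-05 between the replicates at a standard error of 0.07, and PAB1 by 0.27 at 0.09. Intervals cover counting error only, since PCR reads are not independent molecules. Alternatives included DESeq2 1.42.0, RLE and common scaling, filters of 1 and 50 reads, no length offset, no replicate block, a lowess GC correction (span 0.3), each site alone, and each lane or replicate left out.

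Described in full were genes called at 1.5-fold or more and paralog pairs; GCD11, SUI2 and other genes shown with values were chosen after the values were seen. The members and lists were chosen with earlier results of these data known. Genes that share reads with a paralog or an overlapping gene are uncertain; whether strand was used is not stated. No sequence is shown.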

Additional observations from a re-analysis of the deposited data

Results flagged for a closer look

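The log2 ratio of SUI3, the beta subunit of eIF2, was -0.204 in lane 4, farther from the other 7 lanes than Dixon's 95% limit allows. That of TIF34, the i subunit of eIF3, was 0.579 in the same lane. That of GCD6, the epsilon subunit of eIF2B, was -0.293 in lane 3. Lanes 3 and 4 are runs of replicate 2 at UCB. The limit is meant for independent values and a nominal rate of 1 in 20. The 8 lanes come from 2 libraries, so that rate need not hold here. Of the 26 genes 3 were singled out, and the share over all genes was not computed. Without lane 4, SUI3 stood at -0.57 and TIF34 at 0.21, and both were still called (edgeR, adjusted p = 0.000338 and 0.0432). Without lane 3, GCD6 stood at 0.04 and was not called (edgeR, adjusted p = 0.709).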

How the results depend on the processing

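The number of translation factor genes called, 13, was 11 to 15 with each lane left out, where 48.8% to 57% of all genes were called. It was 10 with only the UCB lanes and 15 with only the UCR lanes, against 48.1% and 54.2% of all genes. It was 6 with DESeq2, against 35.3% of all genes, and 0 without the replicate block, against 20.6%, where 2 genes had an unadjusted p under 0.05 and the lowest edgeR adjusted p was 0.0764. The block rests on the design, since both alleles are read in 1 library. With only the UCR lanes, the lowest edgeR adjusted p of the 26 was 4.49e-14, against 0.00245 as reported. SUI3 had a larger standard error there, 0.10 against 0.08. A call gained with only the UCR lanes therefore need not reflect a more precise ratio. The 7 genes called toward S. bayanus were 5 to 9 with each lane left out, against 23.7% to 28.4% of all genes. They were 11 with 1 library size (31.5% of all genes), 2 with DESeq2 (17.4%) and 0 without the replicate block (9.91%). The 6 toward S. cerevisiae stayed at 6 with each lane left out, against 24.8% to 28.5% of all genes. They were 0 without the block (10.7% of all genes). The 17 other translation genes called were 14 to 18 with each lane left out, where 48.8% to 57% of all genes were called. They were 3 without the block, against 20.6% of all genes. Among 468 values of the 26 genes under 18 alternatives, 403 kept direction and side of the threshold, 33 lost the call, 11 gained one and 21 changed sign, all in genes that were not called. These were GCD7 at 0.0682 with 1 shared library size, 0.0237 without the length offset and 0.0623 at UCR alone; GCD1 at -0.0429 with the GC correction; and GCD6 at 0.0968, 0.0320 and 0.112 with 1 shared library size, the GC correction and UCR alone. RPG1 was at -0.0258 at UCR alone, and TIF6 at -0.0110 with the GC correction. TIF3 was at -0.131 with the GC correction and -0.0172 at UCB alone. TIF4631 was at 0.104 with 1 shared library size, 0.0221 without the length offset, 0.119 with the GC correction and 0.0242 at UCB alone. YEF3 was at 0.0667 with 1 shared library size. With each lane or replicate left out, GCD6 ranged from -0.0697 to 0.0413, TIF3 from -0.00401 to 0.0158 and TIF4631 from -0.0934 to 0.0732. The cause was not tested. With either replicate left out, which leaves no test, the 13 called genes kept their direction, at log2 ratios between -0.64 and 0.68.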

Other observations

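FUN12 and EFB1, both with a higher S. cerevisiae allele, have systematic names (YAL035W and YAL003W) that place them on the left arm of chromosome I. Of the 52 tested genes on that arm, 14 were called with a higher S. bayanus allele, against 26.6% of all genes tested. With a higher S. cerevisiae allele 12 were called, against 26.9% (edgeR, adjusted p under 0.05). Both shares were near the background, and the median log2 ratio of the arm was -0.02.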
